A study of Mus musculus with 2 samples.

Results

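The cells described here are stromal cells of the mouse uterus with transcripts of Cxcl14, A2m, Ramp3, Wnt16 and Dio2. A droplet barcode was kept with at least 1000 UMIs (unique molecular identifiers, the counted transcripts), at least 500 genes and no more than 15% of its UMIs from mitochondrial genes. It entered the stromal gate with at least 10 UMIs of Col1a1, Col1a2, Col3a1 and Dcn together, at most 1 UMI each of Epcam, Pecam1 and Ptprc, and at most 2 of Myh11. At most 1 of the division genes Top2a, Mki67, Cenpf, Prc1 and Hmmr could have a UMI. Members had a UMI of at least 3 of the 5 markers and of at most 1 of the matrix fibroblast genes Col14a1, Clec3b, Fmo2, C1qtnf3 and Ak5. The rule found 2298 members among 8579 gated stromal cells, 14848 cells that passed the filter and 17341 barcodes.

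The submitters compared 2 groups of mice. In the group DOX the animals received doxorubicin at 3 mg/kg, and in DOX plus AMH the same dose with anti-Müllerian hormone (AMH) at 0.75 mg/kg. The uteri were collected at 4 h, and each group is 1 library from a pool of 5 animals. Age and dosing schedule are stated only for the bulk sequencing of the series, and these pools were not tied to them. Both groups received doxorubicin, and an untreated library was not analysed here.

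Endometrial stroma is the connective tissue beneath the uterine lining. It holds receptors for oestrogen and progesterone, sends Wnt, BMP and fibroblast growth factor signals to the epithelium, and forms the decidua when an embryo implants. Wnt ligands bind Frizzled receptors, and some of them stabilise beta-catenin. Axin2, Nkd1, Nkd2 and Lef1 are genes that this beta-catenin pathway switches on in many tissues. Doxorubicin is a chemotherapy drug that breaks DNA and so engages p53, while AMH belongs to the TGF-beta family and signals through its own receptor, Amhr2, to BMP-type SMAD proteins.

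Of paired values, the first belongs to DOX and the second to DOX plus AMH. Levels are CPM, a gene's UMIs summed over the members of a library and scaled to the same total for each library. Unless another pair is named, a log2 ratio sets the level in DOX plus AMH over that in DOX. With 1 library per group no difference was tested, and there is no replicate check. Each interval in brackets covers counting error at 95% confidence and not the spread between animals. The members held 22370153 and 10987238 UMIs, with medians of 15239 and 12030 UMIs a cell and 6.68% and 6.10% mitochondrial UMIs. Other gated stroma had medians of 14253 and 9449.5 UMIs. The libraries had 17 barcode sequences in common, and 0 of them belonged to a member in both.

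Members numbered 1433 of 4740 gated cells in DOX and 865 of 3839 in DOX plus AMH. That is 30.2% (exact binomial interval 28.9 to 31.6) and 22.5% (21.2 to 23.9) of the gate, or 18.4% and 12.2% of all cells that passed the filter. With every gated cell thinned to 5000 UMIs before the rule was applied, the shares were 24.6% (23.4 to 25.9) and 15.4% (14.2 to 16.6). Thinning left out 138 and 307 shallower gated cells. The order of the libraries turned when no matrix gene was allowed at all, at 14.2% and 15.1%. In DOX 760 of the members carried exactly 1 of the matrix genes, against 287 in DOX plus AMH. The 5 marker genes were also lower in DOX plus AMH in the pooled gated cells outside the members, with log2 ratios from -1.71 for A2m to -0.51 for Dio2. That pool held 418 and 78 cells with at least 3 markers and exactly 2 matrix genes. In cells with exactly 2 markers and at most 1 matrix gene the markers were mixed. There Cxcl14 (68.7 and 41.8 CPM) and A2m (134.7 and 70.6) were lower, while Ramp3 (21.8 and 31.8), Wnt16 (94.3 and 118.1) and Dio2 (161.3 and 227.1) were higher. A difference in cell number and a difference in marker RNA per cell cannot be told apart here.

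The markers chose the members, and their levels are a description. Cxcl14, a chemokine of epithelium and stroma, stood at 340.5 and 178.2 CPM in members and at 47.4 and 18.7 CPM in other gated stroma. A2m, a secreted protease inhibitor, stood at 618.4 and 453.3 CPM, against 141.4 and 43.2 CPM in the other cells. Ramp3, which pairs with the calcitonin-like receptor to bind adrenomedullin, stood at 178.9 and 110.9 CPM, against 31.5 and 18.1 CPM. All 5 markers were higher in members than in other gated stroma in both libraries. The Wnt ligand Wnt16 reached 265.0 and 241.9 CPM, against 67.2 and 41.8 CPM outside. Dio2, the deiodinase that makes active thyroid hormone, reached 419.5 and 341.1 CPM, against 112.7 and 79.0 CPM. Every marker was lower in DOX plus AMH than in DOX among members, with log2 ratios from -0.93 for Cxcl14 to -0.13 for Wnt16.

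The shares of members with a UMI differed among the markers. At 5000 UMIs a cell, Dio2 was seen in 73.5% and 70.1% of members, and in 24.9% and 21.3% of other gated cells. Wnt16 was seen in 65.0% and 69.1% of members, and Cxcl14, the least frequent, in 40.9% and 36.4%. Cxcl14 was concentrated in part of the cells: at full depth its median was 1 UMI a member in each library and its ninetieth percentile was 10 and 6 UMIs. Of the members, 33.9% and 30.4% also had at least 2 of Slc26a7, Angpt1 and Frmpd4, the genes of a neighbouring stroma. Both neighbours used for comparison belong to the other gated stroma. Matrix fibroblasts are here gated cells with at least 3 of the 5 matrix genes and at most 1 of the markers, 1018 and 727 cells. Slc26a7 stroma has at least 2 of those 3 genes and belongs neither to the members nor to the matrix fibroblasts, 1268 and 868 cells.

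**Figure D1:**
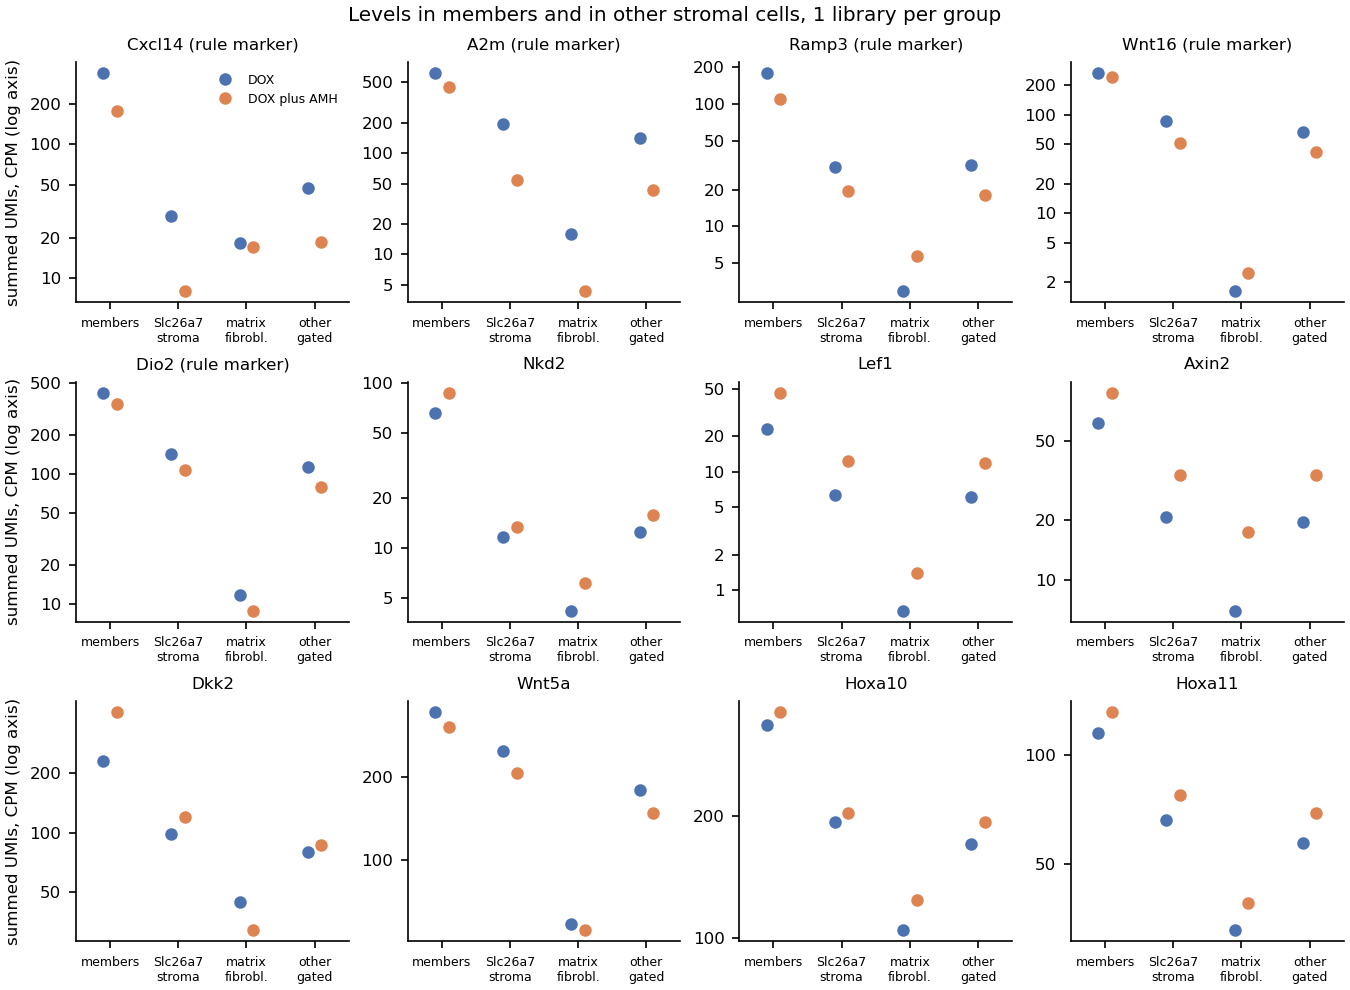
Levels of the 5 rule markers and of 7 other genes as CPM on log axes, each point the summed UMIs of 1 library, in members, Slc26a7 stroma, matrix fibroblasts and all other gated stroma. Nkd2, Lef1, Axin2, Dkk2, Wnt5a, Hoxa10 and Hoxa11, which the rule did not use, are highest in the members in both libraries.

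Cells lay close on either side of the threshold of 3 markers. In cells with at most 1 matrix gene, 346 and 439 cells had exactly 2 markers and lay just outside, while 387 and 389 cells had exactly 3 and lay just inside. Dio2, whose detection helps set these classes, was at 161.3 and 227.1 CPM just outside and 288.4 and 278.8 CPM just inside. Hoxa10, which the rule did not use, was at 223.4 and 279.0 CPM just outside and 276.3 and 327.0 CPM just inside. In cells with all 5 markers Hoxa10 reached 380.1 and 399.6 CPM, and in cells with none it was at 158.3 and 201.3 CPM. Igf1 ran the other way, at 303.5 and 193.2 CPM with no marker and 100.7 and 87.6 CPM with all 5. Depth ran along the same axis, with median totals of 9494 and 7576 UMIs with no marker and 16229 and 14750.5 with all 5. Its part in these gradients was not tested.

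The label of endometrial stroma was checked against genes that place a cell along the reproductive tract and mark uterine mesenchyme. Hoxa10 and Hoxa11, the Hox genes of the uterus, stood at 333.6 and 359.1 CPM and at 115.2 and 131.6 CPM in members. Outside the members Hoxa10 stood at 170.4 and 192.5 CPM and Hoxa11 at 57.2 and 69.3 CPM. Hoxa13, the Hox gene of the lower tract, had 2 and 1 UMIs over all members. Hand2, a progesterone-regulated transcription factor of uterine stroma, stood at 142.6 and 163.2 CPM in members and 59.8 and 70.4 CPM outside. Foxl2 stood at 78.7 and 75.5 CPM, against 37.6 and 37.0 CPM. Of 22 uterine stroma identity genes with enough UMIs, 11 were at least 1.3-fold higher in members than in other gated stroma in both libraries and 5 lower. Tcf21 was among the lower, at 57.8 and 58.5 CPM in members and 123.1 and 134.5 CPM outside. Over all 16082 genes the same thresholds called 6.66% higher and 17.4% lower. Esr1, the oestrogen receptor, stood at 985.5 and 1299 CPM, and Pgr, the progesterone receptor, at 637.4 and 709.8 CPM. Both receptors were also abundant in other gated stroma, Esr1 at 738.5 and 895.2 CPM. Of 24 steroid receptors and targets, 2 were at least 1.3-fold higher in members in both libraries and 5 lower. Of 25 decidualization and implantation genes, a list that holds Hand2, 5 were higher and 12 lower.

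Among all genes, 80 of 5986 counted genes (1.34%) were at least 2-fold higher in members than in other gated stroma in both libraries, and 222 (3.71%) at least 2-fold lower. Genes counted here had at least 100 UMIs in members and other gated stroma together in each library, and at least 20 CPM in the higher of them. The rule selected the cells on measured genes, so these are descriptions of the selected cells, repeated in 2 pools. Apart from the rule's own genes, Nkd2, a feedback inhibitor of Wnt signalling, stood highest by the smaller of its ratios in the 2 libraries. It was at 65.3 and 87.2 CPM in members and 12.5 and 15.8 CPM outside, log2 differences of 2.39 (2.25 to 2.53) and 2.47 (2.31 to 2.63). Col7a1, the anchoring fibril collagen, was at 61.5 and 49.97 CPM, against 15.3 and 10.2 CPM. Lrrc4c, a netrin-G ligand of the cell surface, was the most abundant of the leading genes, at 801.4 and 852.4 CPM against 210.9 and 206.9 CPM. The adhesion molecule Cntn3, the transporter of noradrenaline Slc6a2 and the receptor phosphatase Ptprz1 were also among the 15 leading genes. Edil3, Masp1, Kcnip4 and the RNAs 2700046A07Rik, E230034D01Rik and Gm26512 belonged to them as well, with smaller-library log2 differences between 1.60 and 2.08.

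Inhba, the activin A subunit and one of the 15 leading genes, was at 42.7 and 35.4 CPM in members and 12.5 and 7.99 CPM outside. Bmp7 was at 49.4 and 59.7 CPM, against 18.6 and 29.0 CPM. Crabp1, which binds retinoic acid in the cytoplasm and is also among the 15, was at 56.5 and 62.1 CPM, against 17.9 and 18.1 CPM. Aldh1a2, which makes retinoic acid, was at 130.8 and 81.7 CPM, against 61.4 and 55.0 CPM. Of 12 retinoid genes, 3 were at least 1.3-fold higher in members in both libraries and 7 lower.

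Wnt genes were higher and lower in members at each step of the pathway. Among the ligands, Wnt5a stood at 344.5 and 304.7 CPM in members and 180.2 and 148.0 CPM outside, and Wnt6 at 41.6 and 48.7 CPM against 16.6 and 23.2 CPM. Wnt4 went the other way, at 18.3 and 17.2 CPM against 29.8 and 31.4 CPM. Of 10 ligands, 3 were at least 1.3-fold higher in both libraries and 2 lower, the rule marker Wnt16 among the higher. Among receptors, Ror2, which binds Wnt5a, stood at 182.9 and 136.2 CPM against 104.2 and 67.2 CPM, and Fzd2 at 113.1 and 134.8 CPM against 69.0 and 93.1 CPM. Secreted inhibitors were high too: Dkk2 stood at 228.7 and 405.6 CPM against 80.0 and 87.1 CPM, and Sfrp2 at 120.4 and 198.3 CPM, log2 differences of 1.18 and 0.99. The related Sfrp1 was nearly absent, at 1.52 and 2.28 CPM against 48.5 and 50.3 CPM outside. Of 23 receptors and modulators, 6 were higher and 10 lower.

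Among the response genes, Axin2 stood at 61.6 and 87.6 CPM in members and 19.5 and 33.8 CPM outside, and the transcription factor Lef1 at 22.7 and 46.4 CPM against 6.11 and 11.9 CPM. Tcf7 stood at 16.7 and 15.8 CPM against 5.12 and 5.05 CPM, and Nkd1 at 38.3 and 47.0 CPM against 21.1 and 25.0 CPM. With Nkd2 these made 5 of 11 response genes at least 1.3-fold higher in both libraries, and 3 were lower. In matrix fibroblasts Lef1 was at 0.671 and 1.40 CPM and in Slc26a7 stroma at 6.40 and 12.3 CPM, so the members stood above both. In promoter windows of 300 bases, the TCF/LEF core CTTTGA, on either strand, was in 2 of 10 response genes with a window, Lef1 and Sp5. It was in 18.2% of all 27025 genes with a window.

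Most genes of the NF-kB and cytokine list and of the complement list were lower in members. Mmp3, a matrix protease, had 0.447 and 0.546 CPM in members and 35.2 and 32.9 CPM in other gated stroma. Vcam1, Cxcl1, Gpx3, Fndc1, Bmper, Sntg1 and Zfpm2 were among the 10 lowest with it, each with a log2 difference below -4.5 in both libraries. The complement component C3 was at 9.21 and 16.8 CPM in members, against 243.8 and 1309.5 CPM outside. Of 20 NF-kB and cytokine genes, 0 were at least 1.3-fold higher in members in both libraries and 16 lower, and of 16 complement genes 0 were higher and 13 lower. Of 34 growth factors, 12 were higher and 17 lower, and Igf1 stood at 127.4 and 140.9 CPM against 235.6 and 242.1 CPM. The comparison set holds the matrix fibroblasts that the rule kept out of the members. The NF-kB and cytokine list summed to 275.2 and 295.3 CPM in members and 349.6 and 353.2 CPM in Slc26a7 stroma. In matrix fibroblasts its sum was 1366 and 1056 CPM. The complement list summed to 647.2 and 759.3 CPM, 1022 and 1303 CPM, and 2440 and 5036 CPM in the same order. Members stood nearer to Slc26a7 stroma for both lists. In Slc26a7 stroma C3 was at 29.8 and 153.7 CPM and Mmp3 at 6.59 and 6.52 CPM.

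Most genes of the p53, immediate-early and glucocorticoid lists were lower in members than in other gated stroma, which includes the matrix fibroblasts. The p53 list summed to 1114 and 1057 CPM in members, 1426 and 1202 CPM in Slc26a7 stroma and 4252 and 2629 CPM in matrix fibroblasts. The immediate-early list summed to 1413 and 1777 CPM, 1625 and 2170 CPM, and 2936 and 3495 CPM in the same order, so members stood nearer to Slc26a7 stroma for both lists. Of 42 p53 targets, 0 were at least 1.3-fold higher in members in both libraries and 34 lower. Cdkn1a, the p21 brake on the cell cycle, stood at 15.6 and 9.01 CPM in members and at 227.8 and 154.6 CPM in other gated stroma. Phlda3 stood at 54.8 and 43.9 CPM against 130.7 and 82.9 CPM, and Mdm2, which degrades p53, at 25.1 and 25.3 CPM against 82.2 and 63.4 CPM. At 5000 UMIs a cell the members had a median of 5 and 5 UMIs of the p53 list, and other gated cells 8 and 6. The upper tails differed more: the ninetieth percentile was 9 and 9 UMIs in members and 29 and 16 outside. Of 30 immediate-early genes 0 were higher and 23 lower, with Fos at 47.2 and 88.8 CPM in members and 146.7 and 246.7 CPM outside. Of 23 glucocorticoid-response genes, 1 was higher and 16 lower.

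**Figure D2:**
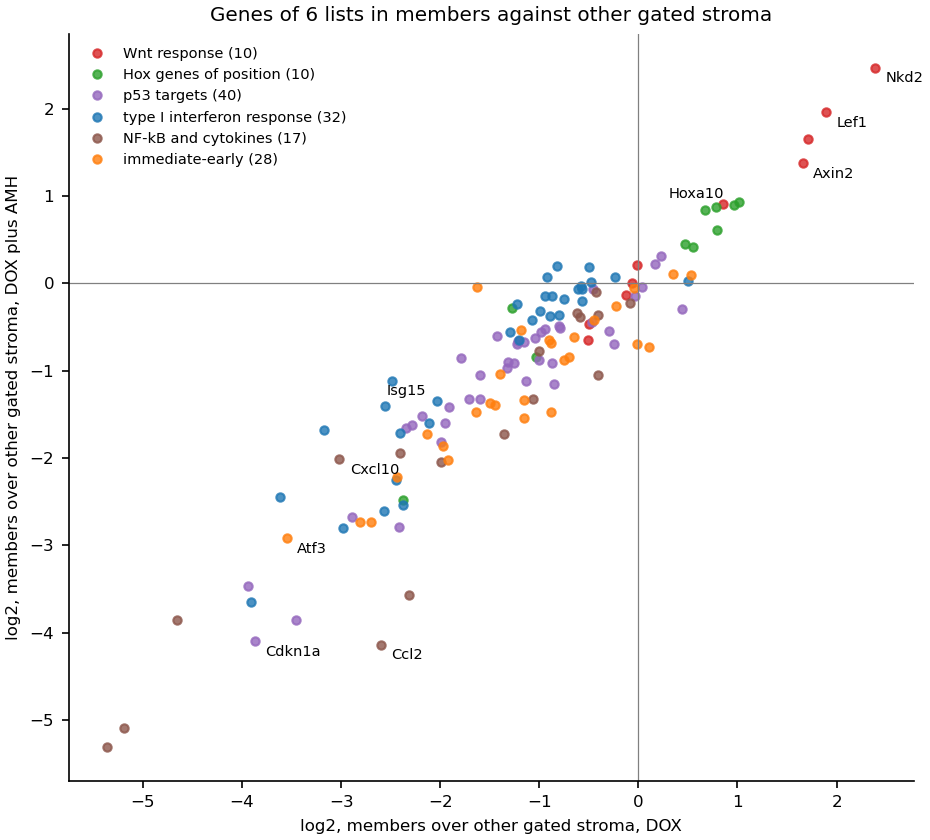
Log2 difference between members and other gated stroma in DOX (x axis) and DOX plus AMH (y axis) for genes of 6 lists with at least 20 UMIs in the members of both libraries together, each point 1 gene of the summed libraries and the number of genes in brackets. Nkd2 lies at 2.39 and 2.47 and Hoxa10 at 0.97 and 0.90 in the upper right, while most p53, cytokine and immediate-early genes lie in the lower left.

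Between the libraries, members had 25 of 6100 counted genes (0.410%) at least 2-fold higher in DOX plus AMH and 21 (0.344%) at least 2-fold lower. Here a gene was counted with at least 100 UMIs over both libraries and 20 CPM in either. The median log2 ratio over 14903 genes with at least 20 UMIs was 0.15 in members and 0.21 in other gated stroma. At 1.3-fold, 23.6% of these genes were higher in members and 6.50% lower, and each list below is set beside these shares. Scaling by edgeR's trimmed mean of M values (TMM), which assumes that most genes are level, moved every ratio by -0.20 and turned the split of the 2-fold genes from 25 and 21 to 13 and 38. A list median below is read against 0.15, or against -0.05, the median of all genes under TMM, where TMM is used. A ratio between 0 and 0.20 has the opposite sign under TMM.

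Among the highest ratios that passed the guard against free RNA were the adrenergic receptor Adra1a, at 6.57 and 22.5 CPM, and Mybpc1, a myosin-binding protein, at 10.8 and 36.4 CPM. The guard asks that, in the library where a gene is higher, its level in members be at least 0.2 times that of the highest other cell class. Col25a1, a membrane collagen, stood at 10.3 and 29.5 CPM with a log2 ratio of 1.51 (1.27 to 1.76). Dtna, of the dystrophin complex, stood at 30.4 and 79.3 CPM, and Coch at 37.7 and 89.6 CPM. Zc3hav1, an antiviral RNA-binding protein, was among the more abundant, at 64.0 and 158.5 CPM and a log2 ratio of 1.31 (1.21 to 1.41), while it was 0.69 in other gated stroma. Slit2, a guidance ligand, stood at 67.2 and 148.0 CPM, a log2 ratio of 1.14 in members and 0.87 outside. Klf10, a TGF-beta induced transcription factor, stood at 15.8 and 33.3 CPM. The synaptic adhesion gene Lrrtm3, the glycosyltransferase Mgat4c, the kinase Stk33 and the transcript Gm10800 made up the 12 highest. Mybpc1 and Lrrtm3 were more abundant in the gate of muscle and mural cells, at 112.0 and 139.3 CPM and at 60.0 and 91.4 CPM. Adra1a stood at 22.4 and 22.7 CPM in that gate and at 25.6 and 31.5 CPM in matrix fibroblasts.

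The lowest ratios past the guard were those of Crtac1, a secreted matrix protein, at 24.9 and 7.46 CPM, and Hsd11b2. Hsd11b2 inactivates glucocorticoids and stood at 163.7 and 49.3 CPM in members, a log2 ratio of -1.73 (-1.86 to -1.60). In other gated stroma it stood at 117.0 and 39.1 CPM, a ratio of -1.58, and in matrix fibroblasts the ratio was -0.91. P2ry14, a receptor for UDP-glucose, stood at 126.4 and 52.9 CPM, with -1.26 in members and 0.31 in matrix fibroblasts, where its level was 10.7 and 13.3 CPM. The eosinophil chemokine Ccl11 stood at 62.6 and 28.9 CPM, with -1.12 (-1.30 to -0.94) in members, -1.23 in Slc26a7 stroma and 0.90 in matrix fibroblasts. Kctd8 had -1.09 in members and 0.05 in other gated stroma. Mfap5, an elastic microfibril protein, stood at 740.0 and 339.8 CPM, and Igfbp6, a binding protein for IGF2, at 501.5 and 230.4 CPM. Gng12, Ripor2, Krt83, Gm30382 and Col6a3 completed the 12 lowest, with log2 ratios between -1.19 and -1.06.

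**Figure D3:**
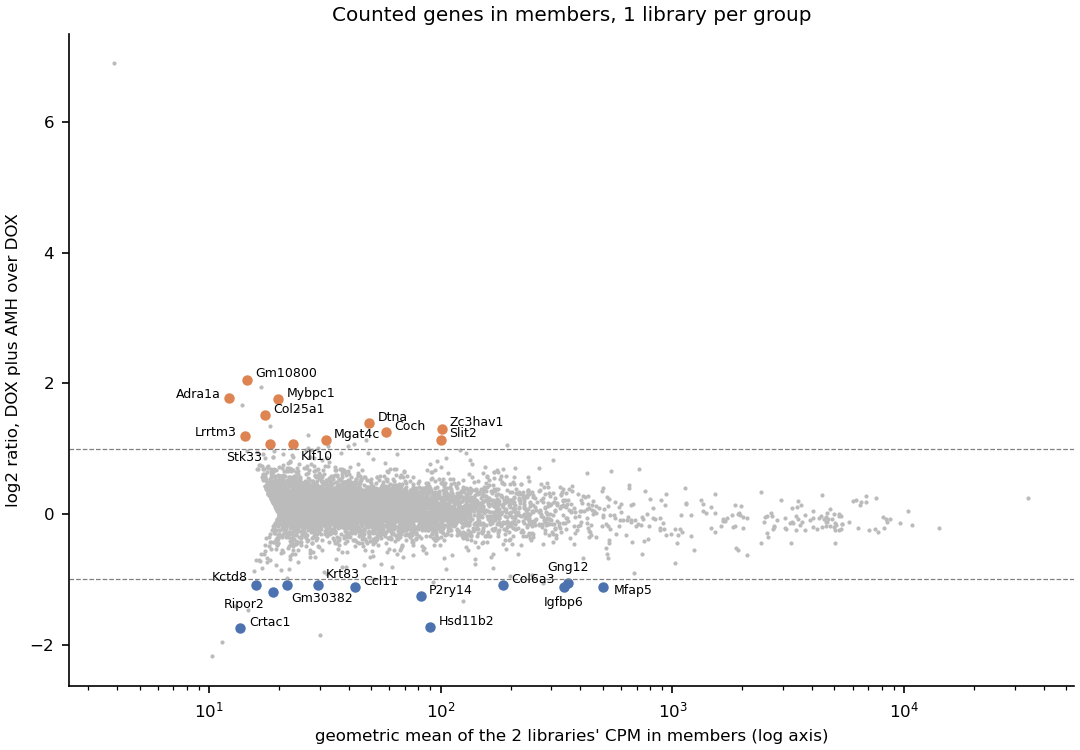
Log2 ratio of DOX plus AMH over DOX in members for the 6100 counted genes against their level (log axis), with dashed lines at 2-fold and the 12 highest and 12 lowest genes named. Hsd11b2 lies at -1.73 and Crtac1 at -1.74, and the isolated point at the top is Retnla at 6.89, which did not pass the guard against free RNA.

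Abundant collagens stood lower in DOX plus AMH than in DOX. A minority of each of the collagen and proteoglycan lists was at least 1.3-fold lower, but a larger share than the 6.5% of all genes. Col1a1 stood at 2605 and 1684 CPM, Col1a2 at 2326 and 1583 CPM and Col3a1 at 3784 and 2782 CPM, though these 3 genes took part in the gate. Of the chains of collagen VI, which the gate did not use, Col6a1 stood at 1328 and 786.8 CPM and Col6a3 at 269.5 and 126.6 CPM, log2 ratios of -0.75 (-0.79 to -0.72) and -1.09 (-1.17 to -1.01). Collagens numbered 20, of which 3 were 1.3-fold higher or more and 7 lower, with a median of -0.27 in members and -0.40 in other gated stroma. At 5000 UMIs a cell, members held a median of 59 and 41 collagen UMIs. Of 32 proteoglycan and elastic fibre genes 3 were higher and 14 lower, with a median of -0.31. The proteoglycan Ogn stood at 57.0 and 15.8 CPM, a log2 ratio of -1.85 against -0.50 outside, but it did not pass the guard against free RNA. Basement membrane genes had a median of 0.06, with 5 of 19 higher and 4 lower. Their chains Col4a5 and Col4a6 stood at 163.8 and 265.6 CPM and at 92.6 and 176.8 CPM, while Col4a1 stood at 206.8 and 131.7 CPM. Col4a1 stood at 1080.0 and 695.7 CPM in the endothelial gate and did not pass the guard.

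Several Wnt response genes were higher in DOX plus AMH. Lef1 stood at 22.7 and 46.4 CPM, a log2 ratio of 1.03 (0.85 to 1.21), and Axin2 at 61.6 and 87.6 CPM, a ratio of 0.51 (0.39 to 0.63). Nkd2 had 0.42 (0.30 to 0.54), and Nkd1 0.30. In other gated stroma the ratios were 0.96 for Lef1, 0.80 for Axin2 and 0.34 for Nkd2, so they were higher there too. Lef1, Axin2, Nkd2 and Tle3 made 4 of 10 response genes at 1.3-fold or more, with 0 lower; the list median was 0.34. Under TMM scaling that median was 0.14, beside -0.05 for all genes.

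The modulators of the pathway did not share 1 pattern. Dkk2, a secreted inhibitor that binds the coreceptors Lrp5 and Lrp6, stood at 228.7 and 405.6 CPM, a log2 ratio of 0.83 (0.77 to 0.88). In other gated stroma its ratio was 0.12, at 80.0 and 87.1 CPM. Sfrp2 had 0.72 in members and 0.92 outside, and Apcdd1, an inhibitor at the cell surface, 0.57 and 0.47. Ror2 was lower, at -0.42 in members and -0.63 outside, and so was the ligand Wnt5a, at -0.18 and -0.28. Of 22 receptors and modulators 10 were at least 1.3-fold higher and 1 lower, and of 9 ligands 2 were higher and 1 lower.

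Dkk2 also varied from cell to cell among members. After thinning to 5000 UMIs, 69.4% and 59.7% of members had no Dkk2 UMI, and the tenth of cells with most Dkk2 held 71.2% and 64.6% of its UMIs. Its variance was 8.15 and 9.57 times its mean, against medians of 1.13 and 1.17 over 928 genes with at least 0.5 UMIs a cell. Among the 15 genes with the largest such ratio were Galntl6, Kcnip4, Nkain3, Csmd1, Kcnd2 and Grm7, as well as Col1a1, Col1a2, Col3a1, Dcn and Mgp. Galntl6, a glycosyltransferase gene, had no UMI in 50.8% and 42.0% of members. Over the 1427 and 849 members, which share a library and a depth of 5000 UMIs, log-transformed Dkk2 had a Pearson correlation of 0.459 and 0.364 with A2m. With Galntl6 it had 0.348 and 0.312, and with Dcn -0.282 and -0.237. With Col3a1 it had 0.315 and 0.321. A2m is a rule marker, and Dcn and Col3a1 took part in the gate, so these values describe cells chosen partly on those genes. With the other markers Dkk2 had 0.014 and -0.083 (Cxcl14), 0.098 and -0.077 (Ramp3), 0.11 and 0.099 (Wnt16), and -0.018 and -0.005 (Dio2).

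The median ratio of interferon genes was below 0 in members and further below it in the other stroma. Of 32 type I interferon genes 1 was at least 1.3-fold higher in members and 13 lower, with a median log2 ratio of -0.26. In other gated stroma 0 of 35 were higher and 33 lower with a median of -0.93, in matrix fibroblasts the median was -1.22 and in Slc26a7 stroma -0.93. Bst2, or tetherin, which holds budding virus at the membrane, was the most abundant, at 398.0 and 191.8 CPM, a log2 ratio of -1.05 (-1.12 to -0.98) against -1.63 outside. Isg15, a ubiquitin-like protein, stood at 42.6 and 23.1 CPM in members and at 174.6 and 58.8 CPM outside. Ifi27l2a stood at 197.5 and 78.4 CPM against 1078 and 372.0 CPM. Isg15 stood at 1493 CPM in the immune gate of DOX and 473.2 CPM in the mesothelial gate of DOX plus AMH, and Isg15, Ifit1, Rsad2 and Ifi27l2a did not pass the guard against free RNA. In DOX the members had a median of 5 interferon UMIs at 5000 a cell, and other gated cells 6, with ninetieth percentiles of 12 and 35. In DOX plus AMH both medians were 3, with ninetieth percentiles of 7 and 12.

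The interferon-stimulated response element, searched as a pair of GAAA words with any 2 bases between them on either strand, is the site that the interferon factor ISGF3 binds. It was found in the 300-base promoter window of 15 of the 26 interferon genes with a window in RefSeq (57.7%), on the build GRCm38.p6, and in 3.99% of all 27025 genes with one. The 200 bases before the start of 4 of these genes are printed. Bst2 leads the list by level in members, and Isg15, Ifit1 and Rsad2 stood below it. Capitals mark the matches, which may overlap. Each is read on its gene's strand, 5′ to 3′, and the windows lie at chr8:71537473-71537672 (minus strand) for Bst2 and chr4:156200819-156201018 (minus) for Isg15. Those of Ifit1 and Rsad2 lie at chr19:34640689-34640888 (plus) and chr12:26456453-26456652 (minus).
Bst2: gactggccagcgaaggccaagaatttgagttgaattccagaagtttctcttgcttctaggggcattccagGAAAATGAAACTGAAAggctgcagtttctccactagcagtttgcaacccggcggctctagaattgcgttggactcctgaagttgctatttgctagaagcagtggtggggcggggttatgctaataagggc
Isg15: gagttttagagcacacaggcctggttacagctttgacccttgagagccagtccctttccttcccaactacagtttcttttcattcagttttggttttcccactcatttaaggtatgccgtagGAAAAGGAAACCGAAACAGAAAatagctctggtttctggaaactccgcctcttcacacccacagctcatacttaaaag
Ifit1: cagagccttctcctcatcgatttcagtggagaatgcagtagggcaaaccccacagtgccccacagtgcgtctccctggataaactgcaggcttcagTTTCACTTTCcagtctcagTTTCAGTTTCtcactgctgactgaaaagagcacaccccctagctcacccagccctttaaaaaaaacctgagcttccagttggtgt
Rsad2: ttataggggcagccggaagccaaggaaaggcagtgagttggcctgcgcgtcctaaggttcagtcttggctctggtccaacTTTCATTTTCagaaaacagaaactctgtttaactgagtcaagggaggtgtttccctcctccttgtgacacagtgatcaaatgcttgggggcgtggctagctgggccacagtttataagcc

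Bst2 held 2 overlapping matches that began 130 and 124 bases before the start, and Isg15 held 3, from 78, 72 and 66 bases before it. Ifit1 held 2 and Rsad2 1, on the opposite strand. In members Ifit1 stood at 18.9 and 9.28 CPM and Rsad2 at 3.13 and 1.09 CPM. Outside the members they stood at 81.4 and 28.1 CPM and at 47.1 and 13.6 CPM. A match describes the letters of the window and not an occupied site.

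Of 40 p53 targets, 5 were at least 1.3-fold higher in DOX plus AMH and 12 lower in members, with a median of -0.15. With no matrix gene allowed the median was 0.04, the opposite sign. Other gated stroma had 6 higher and 18 lower of 42 with a median of -0.30, and matrix fibroblasts a median of -0.51. Rps27l, the most abundant, stood at 333.1 and 287.9 CPM, a log2 ratio of -0.21 against -0.49 outside, and Bax, which permeabilises mitochondria, at 80.7 and 56.3 CPM, -0.52 against -0.94. Cdkn1a had -0.79 (-1.12 to -0.46), but 0.13 when no matrix gene was allowed in members, and it did not pass the guard, nor did Bax. Sesn1 went the other way at 0.35. MHC class I genes had 0 of 16 higher and 1 lower in members, with a median of -0.09 beside 0.15 for all genes. That median was -0.29 under TMM scaling, beside -0.05 for all genes, and 0.03 over the MHC class I genes with at least 100 UMIs. In other gated stroma their median was 0.19, beside 0.21. H2-K1 stood at 142.2 and 109.7 CPM in members and at 206.9 and 298.3 CPM outside.

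Immediate-early and clock genes had medians above that of all genes. Among 28 immediate-early genes, 15 lay 1.3-fold higher or more and 3 lower; the median was 0.41 in members and 0.34 outside. Jun stood at 86.1 and 170.0 CPM, a log2 ratio of 0.98 (0.89 to 1.07), and Egr1 at 100.4 and 178.7 CPM, a ratio of 0.83 (0.74 to 0.92). The inducible chaperones Hspa1a and Hspa1b stood at 17.5 and 40.5 CPM and at 13.8 and 42.0 CPM, whereas the constitutive Hspa8 stood at 634.0 and 512.9 CPM. Of 15 heat shock genes 7 were higher and 0 lower, with a median of 0.17, near that of all genes. Of 18 clock genes 7 were higher and 0 lower, with a median of 0.32, and Rora, the most abundant, stood at 678.2 and 862.1 CPM. Hspa1a stood at 171.8 and 209.9 CPM in the immune gate and did not pass the guard.

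Glucocorticoid-response genes had a median of 0.33 in members, with 11 of 23 higher and 3 lower, and 0.71 in other gated stroma, with 15 higher and 2 lower. Dusp1 and the metallothionein Mt1 stood at 5.81 and 12.2 CPM and at 16.7 and 31.2 CPM. Neither passed the guard. Gadd45g was lower, at 141.1 and 78.5 CPM. Nr3c2, the mineralocorticoid receptor, which Hsd11b2 protects from glucocorticoids, stood at 21.1 and 38.1 CPM, a log2 ratio of 0.86 (0.66 to 1.05).

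**Figure D4:**
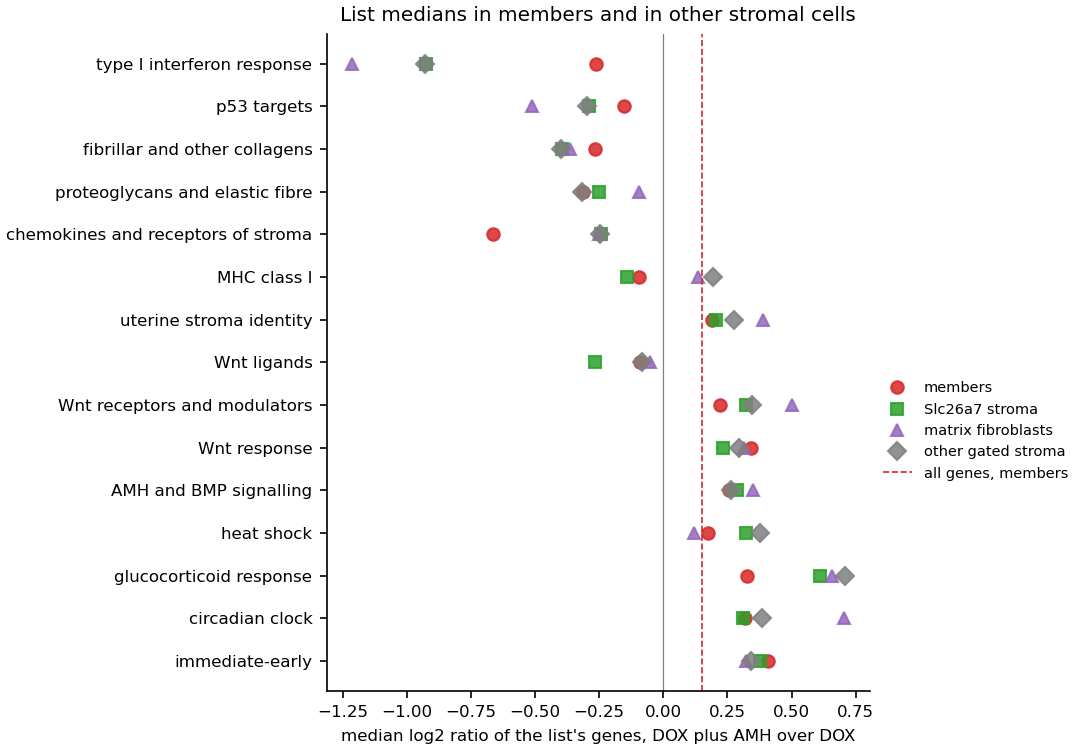
Median log2 ratio of DOX plus AMH over DOX for the genes of 15 lists in members, Slc26a7 stroma, matrix fibroblasts and all other gated stroma, which includes both of these, with the median of all genes in members (0.15) as a dashed line. The interferon list lies at -0.26 in members and between -0.93 and -1.22 in the other sets.

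Steroid, growth factor and decidual genes differed singly. Of 24 steroid receptors and targets 10 were at least 1.3-fold higher in DOX plus AMH and 2 lower. Esr1 had a log2 ratio of 0.40 (0.37 to 0.43), Pgr 0.16 and the hedgehog receptor Ptch1 0.64. Of 31 growth factors 9 were higher and 3 lower. Inhbb, the activin B subunit, had 380 and 18 UMIs in members, or 17.0 and 1.64 CPM, a log2 ratio of -3.37 (-4.14 to -2.69), and it had 16.0 and 2.56 CPM in other gated stroma. Follistatin (Fst), which binds activins, stood at 5.81 and 2.00 CPM. Of 24 decidualization genes 4 were higher and 5 lower. Gja1, a gap junction connexin, stood at 132.7 and 64.6 CPM, a log2 ratio of -1.04 (-1.16 to -0.92) against -0.52 outside. Bmp2, which drives decidualization, stood at 29.6 and 47.0 CPM.

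Amhr2, the receptor for AMH, had 25 and 18 UMIs in all members, or 1.12 and 1.64 CPM. In the muscle and mural gate Amhr2 stood at 6.36 and 9.55 CPM. The AMH and BMP pathway had 7 of 24 genes 1.3-fold higher or more and 1 lower, with a median of 0.26 against 0.15 for all genes. Smad1 stood at 114.7 and 107.6 CPM, Bmpr1a at 91.2 and 99.8 CPM and the BMP target Id3 at 115.9 and 123.5 CPM, all with log2 ratios between -0.09 and 0.13. Smad6, an inhibitory SMAD, had 0.64 (0.33 to 0.94), and Id4 stood at 4.43 and 9.28 CPM.

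Of 12 measured chemokines and receptors, the rule marker Cxcl14 among them, 1 was at least 1.3-fold higher in DOX plus AMH and 7 lower in members. Their median was -0.66, against -0.25 in other gated stroma. It was -0.12 with no matrix gene allowed, -0.26 without the deepest 5% of members and -0.93 over genes with at least 100 UMIs. Apart from Cxcl14 and Ccl11, Ccl2 and Ccl7 stood at 10.9 and 2.55 CPM and at 6.53 and 1.46 CPM. Ccl8 stood at 22.4 and 5.73 CPM, but its log2 ratio of -1.96 became 0.37 without the deepest 5% of members. None of Ccl2, Ccl7 and Ccl8 passed the guard. Cxcl12 stood at 42.4 and 51.2 CPM in members and at 223.2 and 398.6 CPM outside. The adrenomedullin partner Ramp2 stood at 275.7 and 143.1 CPM, a log2 ratio of -0.95 (-1.03 to -0.87), while the receptor Calcrl stood at 73.5 and 82.9 CPM.

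**Figure D5:**
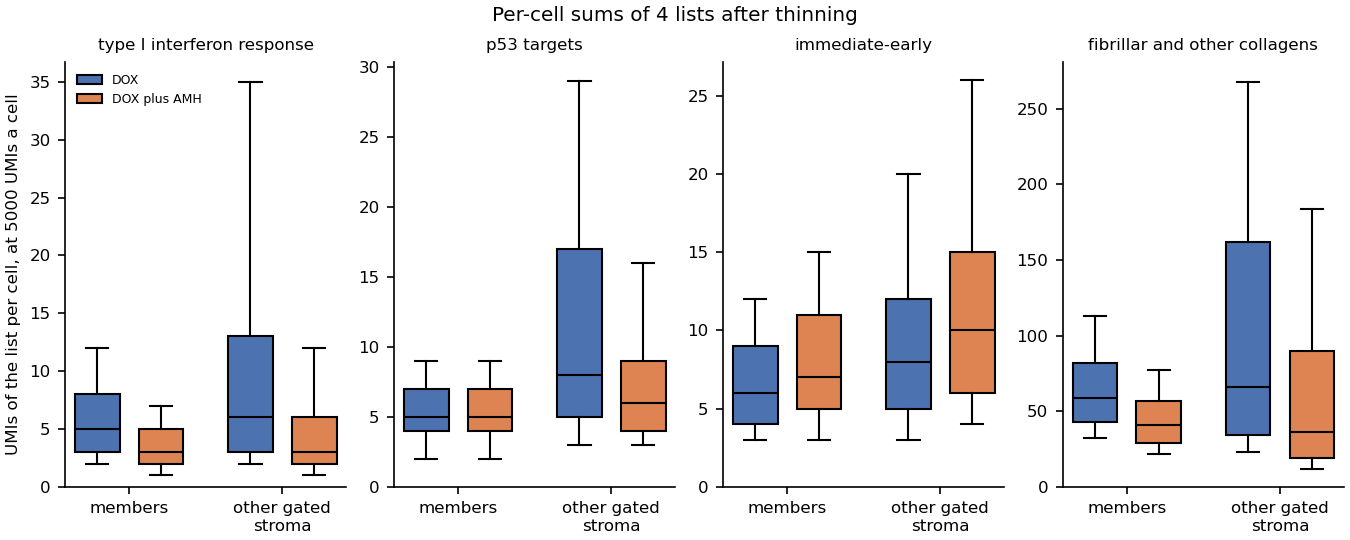
UMIs of 4 lists per cell after thinning to 5000 UMIs, in members and other gated stroma of each library; boxes span the quartiles with the median as a line, and whiskers reach the tenth and ninetieth percentiles. The interferon tail of other gated stroma in DOX reaches 35 UMIs and that of members 12, and the p53 boxes of members span 4 to 7 UMIs in both libraries.

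The remaining lists are given by their counts. In DOX plus AMH, 3 of 21 uterine stroma identity genes were at least 1.3-fold higher and 0 lower, and of 10 Hox genes 3 were higher and 0 lower. Protease inhibitors had 3 of 13 higher and 4 lower, adrenomedullin and CGRP genes 0 of 8 higher and 2 lower, and retinoid genes 2 of 12 in each direction. Adventitial fibroblast genes had 2 of 18 higher and 8 lower with a median of -0.28. Inflammatory fibroblast genes had 3 of 11 higher and 7 lower with -0.41, and the 3 Slc26a7 stroma genes 0 either way. Over inflammatory fibroblast genes with at least 100 UMIs the median was -2.10. These include Ccl2 at -2.10 and Ccl7 at -2.16, neither of which passed the guard, and Tnfaip6 at 0.07. Complement genes had 6 of 14 higher and 2 lower, and NF-kB and cytokine genes 3 of 17 in each direction. The TGF-beta and contractile list had 8 of 20 genes higher and 0 lower, with a median of 0.22, and the integrated stress list 2 higher and 3 lower of 17. NRF2 genes had 1 of 20 higher and 0 lower, and hypoxia and glycolysis genes 4 of 19 higher and 0 lower. Thyroid hormone genes had 2 of 12 higher and 0 lower. In the S phase list 5 of 19 were higher and 1 lower. In the G2/M list, part of which the gate limits, 1 of 14 was higher and 8 lower at a summed 31.4 and 25.8 CPM. The G2/M median was -0.57, but 0.40 over its genes with at least 100 UMIs. The S phase gene Mcm5, a helicase subunit, stood at 17.7 and 17.5 CPM in members and 7 and 5.85 CPM outside. Of 19 S phase genes 1 was at least 1.3-fold higher in members than in other gated stroma in both libraries and 4 lower.

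Markers of other cell types were counted in the members as well. The 9 squamous epithelial markers summed to 8.31 and 65.2 CPM, all 7 with enough UMIs being higher in DOX plus AMH; Krt14 was at 0 in DOX. In other gated stroma that sum was 3.74 and 103.4 CPM, and a gate for squamous cells held 10 and 518 cells. Dendritic markers summed to 14.1 and 49.7 CPM and adipocyte markers to 2.01 and 7.37 CPM, whereas macrophage markers stood at 36.7 and 38.2 CPM and epithelial markers at 27.3 and 27.7 CPM. Smooth muscle markers summed to 288.6 and 349.4 CPM, and haemoglobin and other erythroid genes to 220.8 and 149.0 CPM in members, against 168.7 and 2317 CPM in other gated stroma. Vascular endothelial markers summed to 79.8 and 89.4 CPM, lymphatic ones to 6.44 and 6.74, pericyte ones to 21.6 and 37.6, and mesothelial ones to 203.7 and 189.0. Lymphocyte, neutrophil, glial and oviduct markers summed to 0.939 and 1.09, 0.402 and 2.28, 7.64 and 10.6, and 100 and 90.6 CPM. Stromal markers summed to 12577 and 9155 CPM. The part of other cells in the ratios given here was not tested.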

How the data were processed

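Uterine cells were counted with 10x Genomics 3′ v3.1 chemistry after papain and collagenase A digestion of pooled uteri, per the labels' protocols. Raw UMI counts were deposited for each library as a matrix of genes by barcodes, made by the authors with Cell Ranger 7.0.0 on mm10, per the submitters' processing notes. Rows with the same symbol were summed (40 of 32285). No doublet caller was run; the gate limits cells with transcripts of another type, and leaving out the deepest 5% of members was an alternative.

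Counts of members were summed per library and scaled to CPM over all genes. Ratios have exact intervals from the binomial split of a gene's UMIs, and shares exact Clopper-Pearson intervals; both cover counting error only. Genes at 0 in a library were set against a floor of 3 counts. Genes were counted with at least 100 UMIs and 20 CPM, and genes of lists with at least 20 UMIs, summed over the samples compared. The calculations were tested on simulated data. The members, the 35 gene lists and the 16 marker lists were chosen with earlier results of these data known, and nothing here is independent support for them.

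Named genes were the 12 highest and 12 lowest ratios past the guard against free RNA, 15 genes higher and 10 lower in members than in other gated stroma, 15 by variance over mean, and of each list up to 6 by level and 4 by ratio. Foxl2, Tcf21, Hoxa13, Tcf7, Bmp7, Mdm2, Amhr2, Tle3, Sp5, Krt14 and Retnla were added or singled out after their values were seen. Promoter windows came from RefSeq (GRCm38.p6); 26 of 36 interferon and 10 of 12 Wnt response symbols matched. Python 3.11.15, numpy 2.4.6, scipy 1.17.1, pandas 2.3.3 and edgeR 4.0.16 (TMM factors only) were used.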

Additional observations from a re-analysis of the deposited data

How the results depend on the processing

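With 1 library per group there is no spread between replicates, no replicate could be left out, and all intervals cover counting error only. No paired analysis was possible because each group is 1 library and the labels carry no shared replicate numbers. Alternatives changed the cell filter, the marker and matrix limits, depth, scaling and the low-count filter. The share of members in the gate was 22.1% in DOX and 12.4% in DOX plus AMH with at least 4 markers, 24.6% and 15.4% after thinning, and 14.2% and 15.1% with no matrix gene, where its order turned. Of 6100 genes, 2-fold higher and lower counts of 25 and 21 became 13 and 38 under TMM. With 20 UMIs and no CPM minimum they were 625 and 202 of 14903. Genes 2-fold higher in members than in other gated stroma numbered 50 with no matrix gene and 243 under the looser filter, where lower ones numbered 1168. Under TMM the medians were 0.14 for Wnt response, -0.46 for collagens and -0.46 for interferon genes, beside -0.05 for all genes. Of 149 named genes at least 1.3-fold apart with a value under every alternative, 142 had the same sign under each; the 5 matrix genes of the rule have none where no matrix gene is allowed. With no matrix gene the log2 ratio became -0.34 for Sfrp1 and -0.34 for Slc2a1, 0.31 for Ccl8, 0.13 for Cdkn1a and 0.37 for Cxcl10. Ccl8 became 0.37 without the deepest 5% of members, and with at least 4 markers Tnfaip2 became -1.03 and Cenpf 0.25. Except by these constructions (fewer cells, other genes counted), the cause was not tested.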

Other observations

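Retnla, a secreted protein known from alternatively activated macrophages, had 8 UMIs in the members of DOX and 467 in those of DOX plus AMH, or 0.358 and 42.5 CPM. Its log2 ratio was 6.89 in members and 4.50 in other gated stroma, and it did not pass the guard against free RNA. The squamous keratin Krt5 had 2 and 200 UMIs and Krt14 had 0 and 114 UMIs in members, while Krt5 stood at 4095 CPM in the squamous gate of DOX plus AMH.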
